A study of Mus musculus with 8 samples.

Results

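The genes examined were 44 genes of the interferon response and of class I antigen presentation in mouse adult fibroblasts (MAFs), primary cells grown from the peritoneal fascia of adult mice in which both copies of Rb1 were floxed. The genes were listed by name, and each was represented by the probe set with the highest mean signal over the arrays. Of the 44 genes, 42 had at least 1 probe set of their own by the array annotation (78 probe sets in all), out of 18193 genes measured. The only probe set of Isg15, the ubiquitin-like modifier, is also assigned to Gm9706 and was left out of every count, and Ifi44 was not analysed here. The 42 genes were 9 of class I presentation, 4 transcription factors, 3 sensors of RNA or other nucleic acid, 13 antiviral effectors, 5 interferon-inducible GTPases, 5 genes of the ISG15 and ubiquitin or ADP-ribose pathways and 3 other induced genes.

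All of the cells carried p53DD, a dominant-negative p53 fragment delivered by retrovirus, and all had been infected with an adenovirus that encoded GFP alone or GFP with Cre recombinase. The GFP Naïve cells kept RB, the product of Rb1, and had received no drug, whereas in the Cre Naïve cells, also untreated, Cre had removed the floxed segment of that gene. Populations called GFP Recurred and Cre Recurred had grown back after exposure to cisplatin (CDDP, a DNA crosslinking drug) for 24 h. Each population was measured on 2 Affymetrix Mouse Genome arrays (8 arrays in all), from independently generated populations according to the methods. Infected cells were selected and pooled before treatment, and how many cells founded each recurred population is not given in the sources used here. The strain and the age of the mice were not given in the sources used here.

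Interferons are secreted proteins that bind receptors at the cell surface and activate Janus kinases, which phosphorylate STAT proteins. STAT and IRF proteins then enter the nucleus and switch on a broad set of genes whose products sense viral RNA, block its translation and replication, and raise the display of peptides on class I molecules. A class I molecule consists of a heavy chain and beta-2-microglobulin, and it is loaded in the endoplasmic reticulum with peptides that the proteasome has cut and the TAP transporter has carried in. Fibroblasts make and answer type I interferon and express many of these genes at a basal level without infection.

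Signals are given as log2 values from the Robust Multichip Average (RMA), on which the median of an array lay between 5.37 and 5.41, and a difference of 1 log2 unit is a doubling. A gene is called higher or lower only where the difference was 1.5-fold or more with a Benjamini-Hochberg adjusted p under 0.25 in a limma fit over all probe sets, the thresholds of the study. A stricter adjusted p under 0.05 was applied beside them. Intervals are 95% confidence intervals from the same fit, and values are listed with replicate 1 before replicate 2. With 2 arrays per population an exact two-sided permutation test cannot give a p below 0.333, so all tests rest on the spread that limma shares over the 4 populations and over probe sets. Rb1 gave 7.98 and 8.07 on the GFP Naïve arrays, 6.21 and 5.72 on the Cre Naïve arrays, 8.21 and 8.78 on the GFP Recurred arrays and 4.98 and 5.45 on the Cre Recurred arrays, in the order of the labels.

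Of 9 fibroblast markers, all had a mean above the array medians, and their median ran from 12.88 to 13.45 on 7 arrays and was 11.70 on Cre Recurred replicate 1. Of 11 leukocyte markers, 8 lay below the array medians, with Ptprc, the pan-leukocyte marker CD45, between 2.95 and 3.19. Cd14 at 8.88 to 9.94, Csf1r at 6.37 to 8.19 and Cd3e at 5.71 to 6.26 lay above them. The median of the 11 markers lay between 4.34 and 4.62 on the GFP Naïve arrays and 4.38 and 4.45 on the Cre Naïve arrays. It lay between 4.52 and 4.68 on the GFP Recurred arrays and 4.33 and 4.56 on the Cre Recurred arrays. On GFP Naïve replicate 1 the myeloid markers Csf1r and Lyz2 were at their highest, 8.19 and 6.92, whereas Itgam and Adgre1 were at their lowest, 2.85 and 3.14. The medians of 4 endothelial markers ran from 3.66 to 4.11, and Fabp4, an adipocyte and endothelial lipid carrier, was highest on GFP Naïve replicate 1 at 9.55, with Adipoq at 2.50 to 2.78. The median of 4 mesothelial markers was 5.80 and 4.60 on the GFP Naïve and 5.15 and 6.04 on the Cre Naïve arrays. It was 5.02 and 5.29 on the GFP Recurred and 5.76 and 6.11 on the Cre Recurred arrays. Msln gave 8.85 and 7.82 and Krt19 gave 7.23 and 6.26 on the Cre Recurred arrays, against at most 6.98 and 6.11 on the other arrays. Wt1 gave 4.30 and 5.96 on the Cre Recurred arrays, and Upk3b stayed between 3.85 and 4.14 on all 8 arrays. What these markers contribute to the differences below was not tested, and in bulk RNA a smaller share of responding cells cannot be told apart from less RNA per cell.

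Many of these genes carry the interferon-stimulated response element (ISRE), the site at which STAT and IRF proteins bind, close to their start sites. RefSeq promoters (GRCm38.p6, 250 bases before to 50 after the start site) were found for 31 of the 42 genes and were searched on both strands for the ISRE core, GAAA followed by any 2 bases and a further GAAA. The motif lay in 13 of the 31 (41.9%), against 3.49% of all 27025 promoters and 3.02% of those of genes on the array. It was found in 1 of 8 class I promoters, 1 of 1 of the sensors, 1 of 4 of the transcription factors, 6 of 10 of the antiviral effectors, 4 of 4 of the GTPases, 0 of 2 of the ISG15 and ubiquitin or ADP-ribose group and 0 of 2 of the other induced genes. Of the 8 genes called lower between the recurred populations, 4 had a promoter in the table (Tapbp, Irf7, Oasl2 and Trim25), and none of these 4 windows holds the ISRE letters. A match describes the letters only, and the factors were not measured.

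The bases before the start site are shown for 6 of the genes described below, as examples of where the motif lies in genes of 4 roles, written 5′ to 3′ on the strand of the gene with the ISRE match in capitals. They are B2m (chr2:122147437-122147686, plus strand, match from -139), Stat2 (chr10:128270248-128270497, plus strand, -222), Ifit1 (chr19:34640639-34640888, plus strand, -104 and -85), Oas1a (chr5:120907526-120907775, minus strand, -20 and -14), Bst2 (chr8:71537473-71537722, minus strand, -130 and -124) and Gbp2 (chr3:142620413-142620662, plus strand, -59). Matches on the opposite strand appear as the reverse complement. The pairs in Oas1a and Bst2 overlap and are shown as 1 run.
B2m: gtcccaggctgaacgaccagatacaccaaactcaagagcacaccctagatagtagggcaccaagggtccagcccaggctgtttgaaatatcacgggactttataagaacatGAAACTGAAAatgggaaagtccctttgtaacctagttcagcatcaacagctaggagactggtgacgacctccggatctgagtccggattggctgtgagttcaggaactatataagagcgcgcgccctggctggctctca
Stat2: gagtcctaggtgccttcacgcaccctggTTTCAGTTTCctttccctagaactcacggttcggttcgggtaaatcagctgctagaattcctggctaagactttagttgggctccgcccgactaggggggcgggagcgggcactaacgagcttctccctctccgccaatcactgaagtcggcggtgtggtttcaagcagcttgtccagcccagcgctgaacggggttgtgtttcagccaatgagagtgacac
Ifit1: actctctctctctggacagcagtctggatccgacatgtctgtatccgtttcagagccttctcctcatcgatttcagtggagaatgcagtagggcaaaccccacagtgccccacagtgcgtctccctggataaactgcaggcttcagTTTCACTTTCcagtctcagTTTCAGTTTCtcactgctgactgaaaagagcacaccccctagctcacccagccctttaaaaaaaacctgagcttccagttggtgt
Oas1a: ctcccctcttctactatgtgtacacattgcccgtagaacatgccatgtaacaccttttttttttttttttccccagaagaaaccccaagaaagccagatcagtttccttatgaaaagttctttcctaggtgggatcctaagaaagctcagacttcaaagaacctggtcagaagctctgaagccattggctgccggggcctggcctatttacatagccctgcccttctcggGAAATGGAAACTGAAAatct
Bst2: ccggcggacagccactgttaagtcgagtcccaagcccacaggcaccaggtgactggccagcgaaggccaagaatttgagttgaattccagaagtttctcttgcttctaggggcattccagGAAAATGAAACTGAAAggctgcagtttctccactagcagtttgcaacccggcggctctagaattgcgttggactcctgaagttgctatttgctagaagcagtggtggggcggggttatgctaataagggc
Gbp2: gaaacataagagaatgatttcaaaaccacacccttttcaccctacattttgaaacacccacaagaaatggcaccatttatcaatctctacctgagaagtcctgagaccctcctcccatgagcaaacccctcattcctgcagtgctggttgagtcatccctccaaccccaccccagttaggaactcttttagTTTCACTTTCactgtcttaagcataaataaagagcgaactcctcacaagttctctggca

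Between Cre Recurred and GFP Recurred cells, 8 of the 42 interferon and class I genes passed the thresholds, all of them lower without RB. They were the interferon regulatory factor Irf7, the RNA helicase Dhx58, the nucleic acid sensor Zbp1, the oligoadenylate synthetase-like Oasl2, the GTPase Iigp1, the ubiquitin ligase Trim25, the ADP-ribosyltransferase Parp14 and Tapbp, which encodes the peptide-loading factor tapasin. The 8 are 19.0% of the measured genes, against 6.55% of all 18193 genes called lower, 4.81% called higher and 11.4% called either way in this comparison. At the stricter threshold limma called 0 of the 42, against 200 of all 18193 genes. An unadjusted p under 0.05 was found for 17 of the 42, against 3766 of all 18193 genes. The median difference over the 42 genes was -0.65 on the log2 scale, against 0.04 over all genes, and 40 of the 42 differences (95.2%) were negative, against 43.3% of all genes. For 31 genes both Cre Recurred arrays lay below both GFP Recurred arrays, which held for 23.4% of all genes, and for 2 (4.76%) both lay above, against 31.7%.

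**Figure D1:**
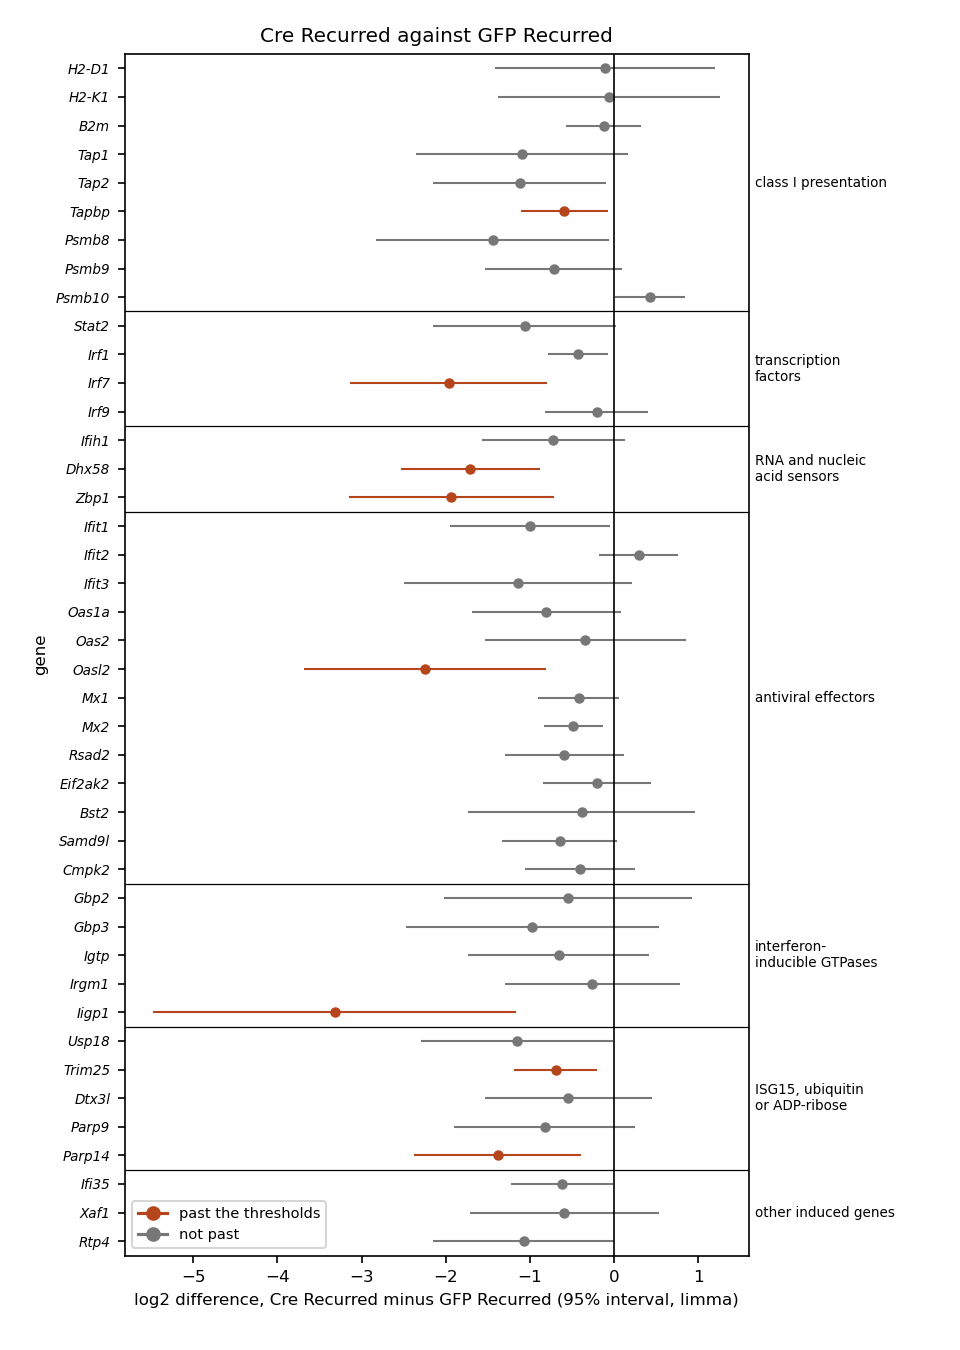
Log2 difference of Cre Recurred minus GFP Recurred for each of the 42 genes, grouped by role, with the 95% interval from limma (n = 2 arrays per population). The 8 genes past the thresholds are in red-brown, all of them to the left of 0, and Psmb10 and Ifit2 are the only points to the right of 0.

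The count depends on single arrays. Without GFP Recurred replicate 2, 0 of 42 genes passed in limma and 32 were negative, and the share of all genes called fell to 0.126%. The differences of the 8 genes then ran from -0.34 for Tapbp to -3.07 for Iigp1, with Irf7 at -1.15 and Zbp1 at -1.14. Without Cre Recurred replicate 1, 0 passed and 40 were negative, with 0.89% of all genes called, while the differences stayed large, at -3.18 for Iigp1, -2.30 for Oasl2 and -2.15 for Irf7. Without GFP Recurred replicate 1, 4 genes passed (Irf7, Dhx58, Zbp1 and Samd9l), against 1.13% of all genes. Without Cre Recurred replicate 2, Tapbp, Oasl2, Trim25 and Parp14 no longer passed, whereas Tap2 did. In that fit the 42 genes passed no more often than all genes. The differences of the 8 genes then ran from -0.49 for Trim25 to -3.46 for Iigp1, and 37 of the 42 differences were negative. With GFP Naïve or Cre Naïve arrays left out, which changes only the estimate of the spread, 14 and 12 genes passed, against 11.9% and 12.3% of all genes, and all 8 were among them. When the spread was estimated from the 4 recurred arrays only, 19 passed, against 13.5% of all genes, again including all 8. With the probe sets of each gene averaged, 10 passed, against 10.3% of all genes, but Tapbp and Trim25 were no longer among them.

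Of the 9 class I presentation genes, Tapbp, whose product tapasin holds class I molecules at the transporter, was the only one to pass. It gave 10.34 and 9.96 on the GFP Naïve arrays, 10.22 and 9.91 on the Cre Naïve arrays, 10.46 and 10.96 on the GFP Recurred arrays and 10.07 and 10.18 on the Cre Recurred arrays. Both GFP Recurred arrays lay above the other 6. The difference between the recurred populations was -0.59 (standard error 0.22, interval -1.11 to -0.08, limma adjusted p = 0.23), and the dimmer of its 2 probe sets gave -0.08.

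Psmb8, a catalytic subunit of the immunoproteasome, differed more but varied more. Its signals were 8.24 and 6.88 in GFP Naïve, 7.84 and 6.22 in Cre Naïve, 7.66 and 8.15 in GFP Recurred and 6.48 and 6.45 in Cre Recurred cells. The replicates of each naïve population were over 1 log2 unit apart, whereas the recurred populations did not overlap. The difference of -1.44 (standard error 0.59) missed the threshold, with a limma adjusted p of 0.28. The TAP transporter genes Tap1 and Tap2 and the further immunoproteasome subunit Psmb9 had differences of -1.09, -1.12 and -0.72 with arrays that did not overlap, and limma adjusted p values from 0.26 to 0.36. Psmb10, the remaining immunoproteasome subunit, ran the other way, with 8.35 and 8.33 in GFP Recurred and 8.87 and 8.66 in Cre Recurred cells, a difference of 0.43 (limma adjusted p = 0.28).

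B2m, which encodes the light chain shared by class I molecules, gave 13.22 and 12.95 on the GFP Naïve, 13.02 and 12.65 on the Cre Naïve, 12.93 and 13.28 on the GFP Recurred and 13.01 and 12.95 on the Cre Recurred arrays. The recurred populations overlapped, and their difference of -0.12 had an interval from -0.57 to 0.32.

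The heavy chain genes H2-D1 and H2-K1 likewise overlapped between the recurred populations at their brightest probe sets. H2-D1 gave 11.87 and 11.25, 11.34 and 9.48, 11.13 and 11.55 and 11.42 and 11.04 in GFP Naïve, Cre Naïve, then GFP Recurred and Cre Recurred cells, and H2-K1 11.69 and 11.03, 11.16 and 9.29, 10.95 and 11.35 and 11.30 and 10.89 in the same order. Cre Naïve replicate 2 stood well below the other 7 arrays for both genes. Between the recurred populations the differences were -0.11 for H2-D1 (interval -1.41 to 1.19) and -0.06 for H2-K1 (interval -1.37 to 1.26).

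For H2-K1 the result depends on the probe set. Its next brightest probe set gave 10.47 and 11.06 in GFP Recurred cells and 9.23 and 9.27 in Cre Recurred cells, without overlap, a difference of -1.51 (limma adjusted p = 0.36), and a dimmer one gave -1.15. The 9 probe sets of H2-D1 ran from -0.31 to 0.08. All 4 H2-K1 probe sets carry the suffix x, by which Affymetrix marks probes that can hybridize to related transcripts, as does the probe set used for H2-D1, so the signals of these near-identical class I genes cannot be fully separated.

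**Figure D2:**
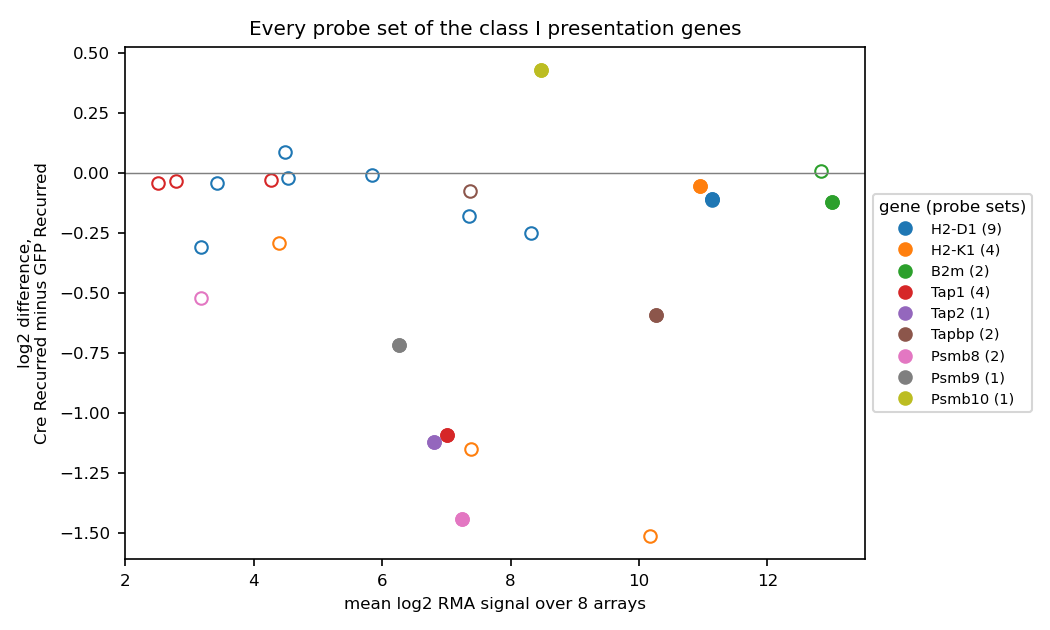
Log2 difference of Cre Recurred minus GFP Recurred against the mean log2 RMA signal over 8 arrays, for every probe set of the 9 class I presentation genes. Filled points are the probe sets used for each gene and open points the others. The H2-K1 probe sets lie between -1.51 and -0.06, whereas the H2-D1 probe sets lie between -0.31 and 0.08.

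The class I genes were set against the antiviral effectors as a group. Between the recurred populations their median difference was -0.59, and that of the 13 antiviral effectors was -0.48. In Cre Naïve against GFP Naïve cells the medians were -0.31 and -0.48, in GFP Recurred against GFP Naïve cells 0.34 and 0.24, and in Cre Recurred against Cre Naïve cells 0.06 and -0.004. The medians of the groups thus lay within 0.17 of each other in these 4 comparisons, less than the standard deviation between replicates of 0.25 for the class I median minus the antiviral median on single arrays. With single arrays left out the gap between the recurred populations ran from -0.32 to 0.12. The interaction medians were -0.51 and -0.07, a gap of -0.43 that ran from -0.66 to 0.082 as single arrays were left out and was -0.12 with all probe sets of a gene averaged. Among the class I genes 5 of 9 did not overlap between the recurred populations on the lower side and 1 on the higher side. For the antiviral effectors these counts were 10 and 1 of 13, and over all genes the shares were 23.4% lower and 31.7% higher.

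**Figure D3:**
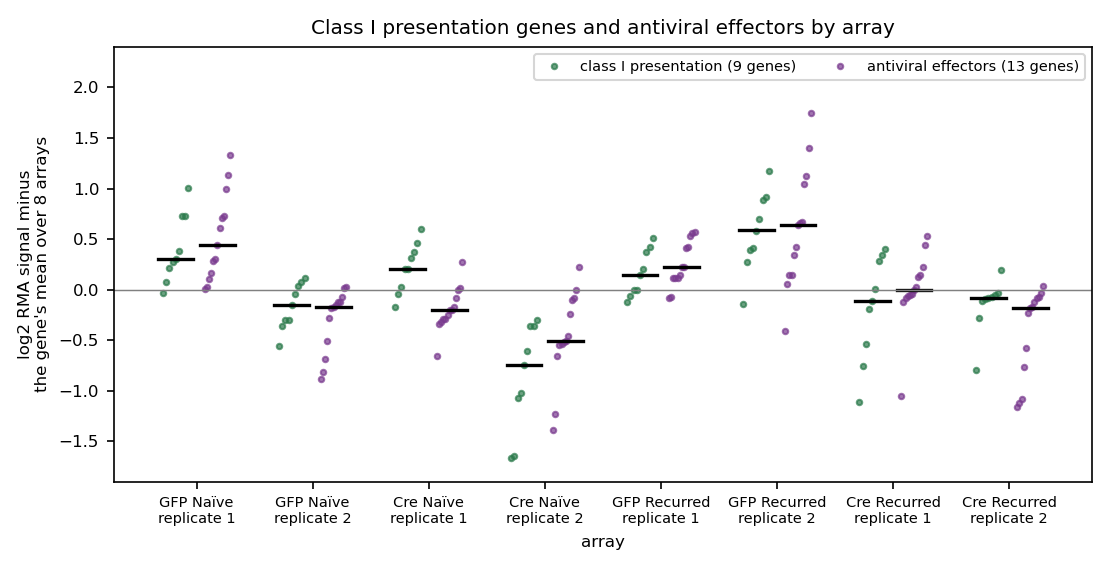
Log2 RMA signal of each gene minus its own mean over the 8 arrays, for 9 class I presentation genes (green) and 13 antiviral effectors (purple) on each array, with the median of each group as a black bar. Both groups are highest on GFP Recurred replicate 2, with medians of 0.58 and 0.64, and lowest on Cre Naïve replicate 2, at -0.75 and -0.51.

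Of the 4 transcription factors, Irf7, the factor that amplifies type I interferon production, was 3.91-fold lower in Cre Recurred than in GFP Recurred cells. It gave 7.59 and 6.91 in GFP Naïve, 6.70 and 6.57 in Cre Naïve, 7.31 and 8.96 in GFP Recurred and 6.35 and 5.99 in Cre Recurred cells. Both Cre Recurred arrays lay below the other 6, and GFP Recurred replicate 2 stood above all others. The log2 difference was -1.97 (standard error 0.50, limma adjusted p = 0.11).

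Stat2, the STAT protein specific to type I and type III interferon signalling, gave 7.17 and 5.64, 6.51 and 5.80, 6.70 and 6.66 and 5.66 and 5.58 in GFP Naïve, Cre Naïve, then GFP Recurred and Cre Recurred cells. The GFP Naïve arrays spanned most of the range, and the recurred populations did not overlap. Its difference of -1.06 had a limma adjusted p of 0.31.

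Irf1, a factor induced by interferon-gamma, gave 8.68 and 8.49, 8.77 and 8.63, 8.96 and 8.81 and 8.32 and 8.60 in the same order. The signals stayed within a narrow range. Its difference of -0.42 had a limma adjusted p of 0.22 but was 1.34-fold, below the fold threshold. Irf9, the DNA-binding partner of the STAT proteins, differed by -0.20 with overlapping arrays.

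The sensors of RNA and other nucleic acids held 2 of the 8 called genes. Dhx58, which encodes the RNA helicase LGP2, had the smallest adjusted p of the 42 genes. It gave 7.12 and 6.60 on the GFP Naïve, 6.76 and 6.24 on the Cre Naïve, 7.13 and 8.10 on the GFP Recurred and 5.76 and 6.06 on the Cre Recurred arrays. The Cre Recurred arrays lay below and the GFP Recurred arrays above all others. The difference between the recurred populations was -1.71 (standard error 0.35, interval -2.54 to -0.88, limma adjusted p = 0.081), and -0.80 with the mean of its 3 probe sets, the weakest of which gave -0.22. Averaged over naïve and recurred arrays, the Cre cells were lower by 1.03 log2 units than the GFP cells (limma adjusted p = 0.24), which made Dhx58 the only gene called in that comparison, where 1.42% of all genes were called lower, 0.467% higher and 1.89% either way. That call was lost when any single array other than Cre Naïve replicate 1 was left out, with differences from -1.28 to -0.79.

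Zbp1, a sensor of Z-form nucleic acid, gave 6.75 and 5.81 in GFP Naïve, 6.28 and 5.92 in Cre Naïve, 6.93 and 8.52 in GFP Recurred and 5.65 and 5.93 in Cre Recurred cells. GFP Recurred replicate 2 stood far above the rest, and its partner array was still the next highest. Zbp1 was 3.82-fold lower in Cre Recurred than in GFP Recurred cells (log2 difference -1.93, standard error 0.52, limma adjusted p = 0.13). Ifih1, which encodes the RNA helicase MDA5, gave 9.17 and 8.26, 8.51 and 8.18, 8.40 and 8.99 and 8.28 and 7.67 in the same order of populations. Its recurred arrays did not overlap, and the difference was -0.72 (limma adjusted p = 0.38).

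**Figure D4:**
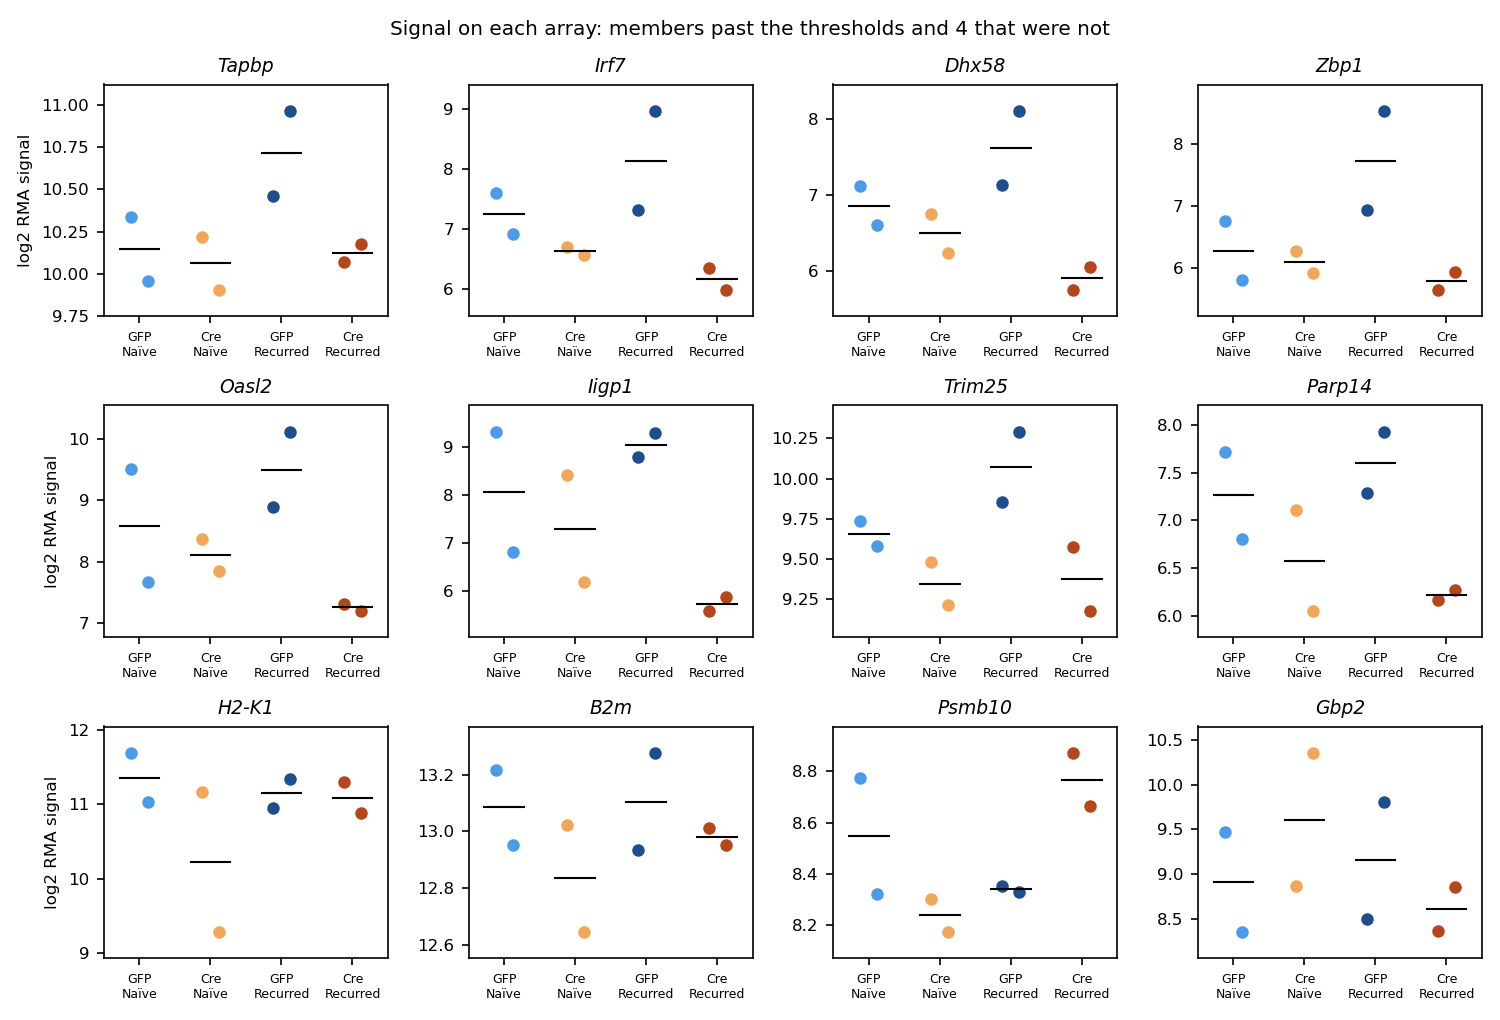
Log2 RMA signal on each of the 8 arrays for the 8 genes past the thresholds between the recurred populations (Tapbp to Parp14) and for H2-K1, B2m, Psmb10 and Gbp2, which were not past them. Each point is 1 array, the black bar is the mean of the 2 arrays of a population, and each panel has its own axis, which does not start at 0. In the first 8 panels both Cre Recurred points lie below both GFP Recurred points.

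Among the antiviral effectors, which degrade or block viral RNA and virus particles, Oasl2 passed the thresholds. Its signals were 9.51 and 7.68 in GFP Naïve, 8.37 and 7.86 in Cre Naïve, 8.90 and 10.11 in GFP Recurred and 7.32 and 7.21 in Cre Recurred cells. The Cre Recurred arrays were close together and the lowest of the 8. Oasl2 was 4.73-fold lower in Cre Recurred than in GFP Recurred cells (log2 difference -2.24, standard error 0.61, limma adjusted p = 0.13).

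Ifit1, whose product binds the caps of viral RNA, gave 10.24 and 9.37, 9.44 and 9.43, 9.67 and 10.19 and 9.46 and 8.41 in GFP Naïve, Cre Naïve, then GFP Recurred and Cre Recurred cells. Cre Recurred replicate 2 lay about 1 log2 unit below its partner. The difference of -0.998 had a limma adjusted p of 0.28. Ifit3 differed by -1.14 (limma adjusted p = 0.38), and Ifit2, of the same family, by 0.29 in the other direction with arrays that did not overlap.

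Oas1a, an oligoadenylate synthetase whose product activates RNase L, gave 9.02 and 8.73 in GFP Naïve, 8.36 and 7.62 in Cre Naïve, 9.58 and 10.41 in GFP Recurred and 9.54 and 8.84 in Cre Recurred cells. In each genotype both recurred arrays lay above both naïve arrays, and in each state both Cre arrays lay below both GFP arrays, although Cre Recurred replicate 1 came close to GFP Recurred replicate 1. The recurrence difference was 1.12 in GFP cells and 1.20 in Cre cells, and averaged over both 1.16 (interval 0.53 to 1.79), which did not pass, with a limma adjusted p of 0.55. Averaged over both genotypes it was the largest difference with recurrence among the 42 genes. Between the recurred populations Oas1a differed by -0.80 (limma adjusted p = 0.34).

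Bst2, or tetherin, which holds budding virus at the cell surface, gave 9.87 and 8.38, 9.06 and 8.03, 9.38 and 10.39 and 9.70 and 9.30 in the order of the populations above. The replicates of each naïve population lay over 1 log2 unit apart. The recurred populations overlapped, with a difference of -0.38 (interval -1.73 to 0.97). The remaining effectors, Oas2, Mx1, Mx2, Rsad2, Eif2ak2, Samd9l and Cmpk2, differed by -0.64 to -0.21 between the recurred populations. Of these 7, 6 lay lower without overlap in Cre Recurred cells at their brightest probe sets, against 23.4% of all genes. Other probe sets of some differed in sign: 2 of 3 were negative for Rsad2, 1 of 2 for Cmpk2 and 1 of 3 for Eif2ak2. The highest of these probe sets gave 0.51, 0.32 and 0.22. Mx2 had a limma adjusted p of 0.16 but differed by less than 1.5-fold. Mx1, at 3.92 to 4.72 on the 8 arrays, lay below the array medians throughout. The probe set shared by Isg15 and Gm9706 gave 9.34 and 8.37, 8.45 and 8.11, 9.35 and 10.31, and 7.92 and 7.66 in the 4 populations, with the Cre Recurred arrays below all others.

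The largest difference of the 42 genes was that of Iigp1, a GTPase that attacks the vacuoles of intracellular parasites. It gave 9.32 and 6.81 in GFP Naïve, 8.42 and 6.18 in Cre Naïve, 8.80 and 9.30 in GFP Recurred and 5.58 and 5.87 in Cre Recurred cells. Both naïve populations held arrays over 2 log2 units apart, whereas the recurred arrays were tight and far from each other. Iigp1 was 9.99-fold lower in Cre Recurred than in GFP Recurred cells (log2 difference -3.32, standard error 0.91, interval -5.48 to -1.17, limma adjusted p = 0.14), and its other probe set gave -3.33.

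Gbp2, a guanylate-binding protein, did not share that pattern. Its signals were 9.47 and 8.36, 8.87 and 10.35, 8.50 and 9.81 and 8.37 and 8.85 in GFP Naïve, Cre Naïve, then GFP Recurred and Cre Recurred cells, highest on Cre Naïve replicate 2, the array on which most of the other genes were lowest. The difference between the recurred populations was -0.54 (interval -2.02 to 0.93). Gbp3, Igtp and Irgm1 differed by -0.97, -0.66 and -0.26, with limma adjusted p values from 0.51 to 0.83.

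In the ISG15 and ubiquitin or ADP-ribose group all 5 genes lay lower without overlap on the Cre Recurred than on the GFP Recurred arrays, against 23.4% of all genes. Of the 5, 2 passed, against 6.55% of all genes called lower. Trim25, the ubiquitin ligase that acts on the RNA sensor RIG-I, gave 9.73 and 9.58, 9.48 and 9.21, 9.85 and 10.29 and 9.58 and 9.18 in GFP Naïve, Cre Naïve, then GFP Recurred and Cre Recurred cells, a difference of -0.69 between the recurred populations (standard error 0.21, limma adjusted p = 0.16). Its 3 probe sets ran from -0.77 to -0.03, and with their mean the difference was -0.50 and the call was lost. Parp14 gave 7.72 and 6.81, 7.10 and 6.06, 7.28 and 7.92 and 6.16 and 6.28, a difference of -1.38 (standard error 0.42, limma adjusted p = 0.16). For Parp14, Cre Naïve replicate 2 was as low as the Cre Recurred arrays, and the mean of its 2 probe sets gave -0.75.

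Usp18, the protease that removes ISG15 and restrains the interferon receptor, gave 9.98 and 8.87, 9.03 and 8.06, 9.75 and 10.52 and 9.30 and 8.66 in the same order. The recurred populations did not overlap, and the difference of -1.15 had a limma adjusted p of 0.30. Dtx3l and Parp9, which form a ubiquitin ligase complex, differed by -0.54 and -0.82 and did not pass.

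Of the other induced genes none passed. Rtp4, a chaperone of membrane receptors, gave 10.13 and 9.54, 9.28 and 8.81, 9.80 and 10.98 and 9.76 and 8.88 in GFP Naïve, Cre Naïve, then GFP Recurred and Cre Recurred cells, a difference of -1.08 between the recurred populations (limma adjusted p = 0.30). Ifi35 gave 10.69 and 10.12, 10.27 and 10.04, 10.59 and 11.20 and 10.25 and 10.31, a difference of -0.62, and its 3 probe sets ran from -0.62 to -0.41. For both genes the highest array was GFP Recurred replicate 2 and the recurred populations did not overlap. Xaf1, an antagonist of the apoptosis inhibitor XIAP, gave 9.84 and 8.59, 8.51 and 8.55, 8.95 and 10.09 and 9.13 and 8.73, with an overlap between the recurred populations and a difference of -0.59.

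Replicates of the same population also differed in these genes, mostly in 1 direction across genes. In GFP Naïve cells all 42 were higher on replicate 1 than on replicate 2, by a median of 0.70 log2 units, whereas 8478 of 18193 genes were, with a median of -0.02. For 14 of the 42 (33.3%) this gap was over 1 log2 unit, against 3.62% of all genes. In GFP Recurred cells 35 of the 42 were higher on replicate 2, by a median of 0.56, and in Cre Naïve cells 37 were higher on replicate 1, by a median of 0.36. The Cre Recurred arrays were closest, with a median gap of 0.30 in size and 3 genes over 1 log2 unit apart.

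Counted by array, GFP Recurred replicate 2 held the highest signal of 22 of the 42 genes and GFP Naïve replicate 1 that of 15, against 2005 and 1705 of all 18193 genes. Cre Naïve replicate 2 held the lowest signal of 23 genes, among them 8 of the 9 class I genes, against 9.61% of all genes. Neither GFP Naïve replicate 1 nor GFP Recurred replicate 1 held the lowest signal of any of the 42. The median deviation of the 42 genes from their own means was 0.51 and -0.21 on the GFP Naïve arrays, -0.06 and -0.51 on the Cre Naïve arrays, 0.17 and 0.72 on the GFP Recurred arrays and -0.07 and -0.30 on the Cre Recurred arrays, and over all genes it stayed between -0.03 and 0.05.

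**Figure D5:**
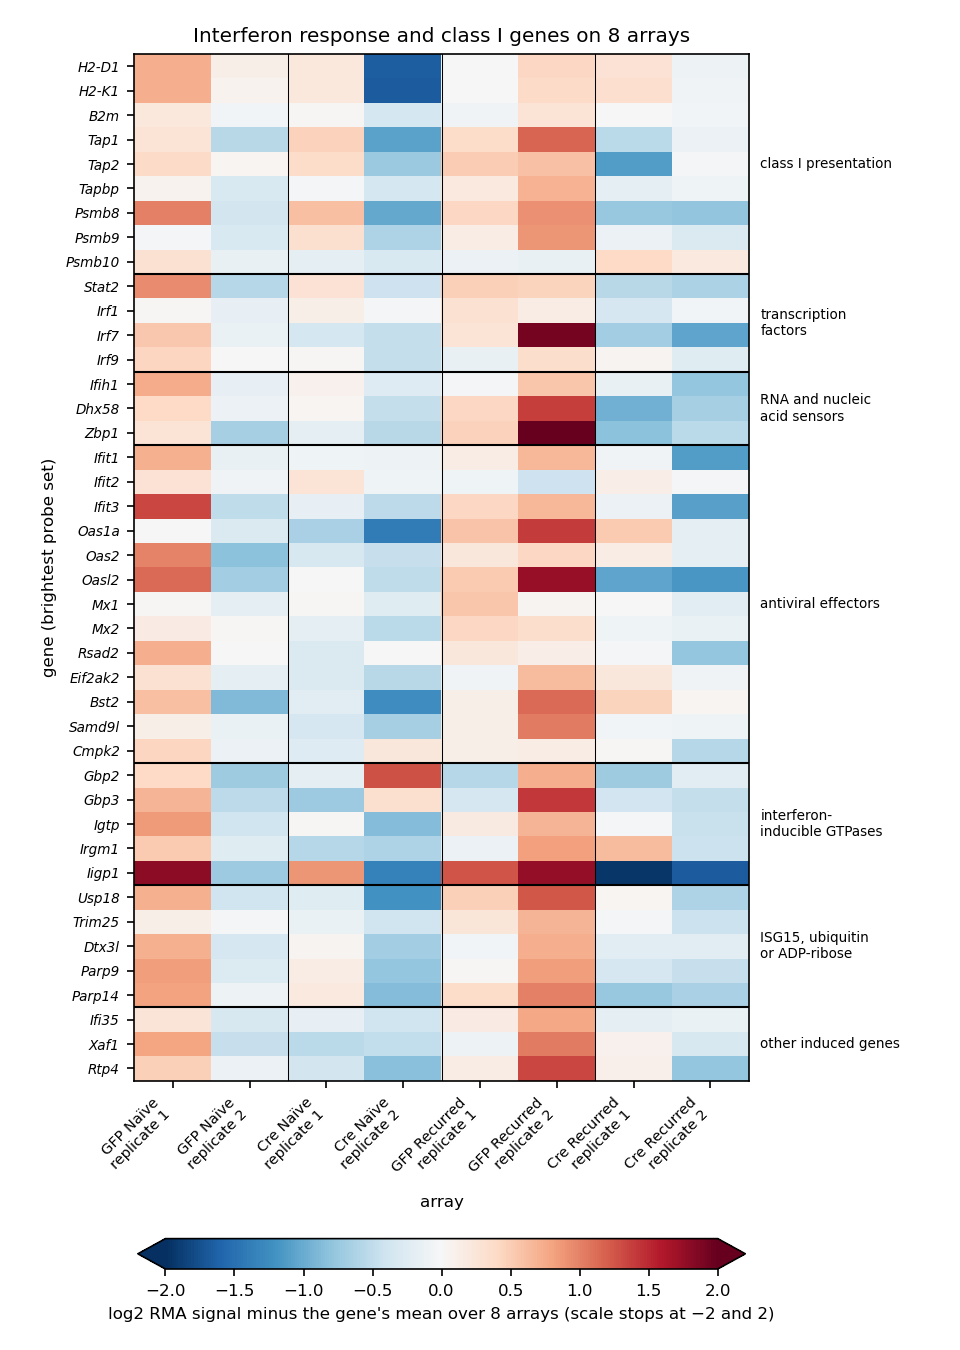
Log2 RMA signal of each of the 42 genes (rows, grouped by role) minus the mean of that gene over the 8 arrays (columns). Red is above the mean and blue below, and the colours stop at -2 and 2. GFP Naïve replicate 1 and GFP Recurred replicate 2 are red for nearly all genes (41 and 40 of 42 above their mean), and Cre Naïve replicate 2 is blue for all but 3.

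The naïve populations and the effect of recurrence gave no call among the 42 genes. Between Cre Naïve and GFP Naïve cells limma called 0 of the 42 genes, and 0% of all genes. An unadjusted p under 0.05 was found for 1 member, against 446 of all 18193 genes. Of the 42 differences 39 were negative, with a median of -0.47, and 11 genes (26.2%) did not overlap on the lower side, against 13.3% of all genes, and 0 on the higher side, against 13.9%. With Cre Naïve replicate 1 left out, 2 genes passed, while the calls over all probe sets went from 0 to 110 higher and 165 lower.

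Between GFP Recurred and GFP Naïve cells limma called 0 of the 42 genes, against 0.0165% of all genes. An unadjusted p under 0.05 was found for 3 of the 42, against 1079 of all 18193 genes. The differences were positive for 34 genes, with a median of 0.30, and 12 genes (28.6%) did not overlap on the higher side, against 22.1% of all genes, and 1 (2.38%) on the lower side, against 18.1%. The largest was that of Zbp1, at 1.45 (interval 0.23 to 2.67, limma adjusted p = 0.87). Between Cre Recurred and Cre Naïve cells the signs were even, with 20 positive, 22 negative and a median of -0.01, and 9 genes did not overlap on the higher side (21.4%, against 27.4% of all genes) and 7 on the lower side (16.7%, against 17.8%). Again limma called 0 of the 42, against 1.65% of all genes. An unadjusted p under 0.05 was found for 2 of the 42, a smaller share than the 2552 of all 18193 genes. Since both recurred populations are compared here with their own naïve arrays, and each of those arrays also enters the comparison of the naïve cells, these counts are not independent of each other.

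The interaction of RB status and recurrence asks whether recurrence acted differently in the 2 genotypes. It was past the thresholds for 0 of the 42 genes in limma, against 0.539% of all genes. An unadjusted p under 0.05 was found for 4 of the 42, a smaller share than the 2251 of all 18193 genes. The point estimates were largest for Iigp1 at -2.56 (interval -5.61 to 0.49), Oasl2 at -1.76 and Zbp1 at -1.75. Dhx58 (-1.35, limma adjusted p = 0.44) and Irf1 (-0.54, limma adjusted p = 0.46) lay higher without overlap in GFP Recurred than in GFP Naïve cells. Both also lay lower without overlap in Cre Recurred than in Cre Naïve cells. No other of the 42 genes did both, and these 2 are no larger a share than the 4.86% of all genes. For Dhx58 the higher side rested on 7.13 on GFP Recurred replicate 1 against 7.12 on GFP Naïve replicate 1. A different response to recurrence in the 2 genotypes was thus not shown for any single gene. Recurrence averaged over both genotypes called 0 of the 42, against 0.0934% of all genes. An unadjusted p under 0.05 was found for 3 of the 42, a smaller share than the 1539 of all 18193 genes.

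The rest of the pathway was covered by lists of 86 further measured genes. Between Cre Recurred and GFP Recurred cells, 19 of the 86 were lower and 3 higher, and the counts of each list below are to be read against 6.55% of all genes called lower and 4.81% called higher. Of 33 further interferon-induced genes, 13 (39.4%) were lower and 0 higher, with a median of -0.59. Parp12, an antiviral ADP-ribosyltransferase, was the only one past the stricter threshold, with 9.46 and 10.22 on the GFP Recurred arrays and 7.76 and 8.06 on the Cre Recurred arrays (log2 difference -1.93, limma adjusted p = 0.038). The GTPase Gbp6 and the ATPase Tor3a were lower by 3.05 and 1.55 log2 units (limma adjusted p = 0.13 and 0.081).

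Upstream of these genes the lists gave a mixed account. The interferon ligands were dim throughout, with 0 of 7 measured genes called and Ifna1 between 4.42 and 5.00. Of 13 receptor and JAK-STAT genes, 3 (23.1%, against 6.55% of all genes) were lower and 0 higher in Cre Recurred than in GFP Recurred cells. Jak2, a kinase of the interferon-gamma receptor and of several cytokine receptors, gave 9.90 and 9.51 in GFP Naïve, 10.26 and 9.79 in Cre Naïve, 10.18 and 10.33 in GFP Recurred and 8.91 and 9.23 in Cre Recurred cells. The Cre Recurred arrays were below all others, with a difference of -1.19 from GFP Recurred (limma adjusted p = 0.065) and of -0.96 from Cre Naïve cells (limma adjusted p = 0.25, just inside the threshold). Stat3, which mainly serves other cytokines, and Socs3, its feedback inhibitor, were lower by 0.95 and 1.59 log2 units (limma adjusted p = 0.11 and 0.12).

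Of 18 sensors, adaptors and kinases upstream of interferon, 1 was lower (5.56%, no more than the 6.55% of all genes) and 2 were higher (against 4.81% of all genes) in Cre Recurred than in GFP Recurred cells. Ddx58, which encodes the RNA sensor RIG-I, was lower by 0.95 log2 units (limma adjusted p = 0.11). Aim2, a sensor of cytosolic DNA, was higher by 1.67 (limma adjusted p = 0.074), although its signals of 5.01 and 4.51 on the Cre Recurred arrays and 2.86 to 3.61 on the others were below the array medians. Rnaseh2a, a subunit of the nuclease that clears ribonucleotides from DNA, was higher by 0.66 (limma adjusted p = 0.077).

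Of 12 further class I and peptide-loading genes, 2 were lower and 1 higher, against 6.55% and 4.81% of all genes. The nonclassical class I gene H2-M3 was 2.01-fold lower and the class I-like iron regulator Hfe 2.61-fold lower, while the proteasome activator subunit Psme3, which is not part of the interferon-induced activator, was 1.58-fold higher (limma adjusted p = 0.25, 0.12 and 0.16). The constitutive proteasome subunits Psmb5, Psmb6 and Psmb7, whose places the immunosubunits take, differed by 0.33, 0.08 and -0.03 and were not called.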

How the data were processed

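Total RNA of 8 samples (2 for each of 4 populations) was hybridized by the authors to Affymetrix Mouse Genome arrays, and they deposited log2 values normalized with RMA, which corrects background, quantile-normalizes the arrays together and summarizes the probes of each probe set. The table was used as deposited, without further scaling, and the number of arrays limits the precision. Gene symbols came from the platform annotation: of 45101 probe sets, 64 controls were left out, 34945 have 1 symbol, 932 several and 9160 none, and only those with 1 symbol were named. Among the probe sets of a gene, that with the highest mean over 8 arrays stood for it.

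With limma 3.58.1 in R 4.3.3, 1 mean per population was fitted to 45037 probe sets (4 residual and 3.07 prior degrees of freedom, prior SD 0.17), followed by eBayes and Benjamini-Hochberg adjustment over all of them, for 7 comparisons. The scripts were tested on simulated data. Values on every array are given for genes past the thresholds and, in each role, for the gene with the highest mean and the 2 with the largest range of population means (3 in class I presentation and antiviral effectors), and up to 3 genes of each pathway list are named, those past the thresholds first. The methods used Significance Analysis of Microarrays, which was not run here. The gene list, the pathway lists and the marker lists were chosen with earlier results of these data known. Promoters came from RefSeq (GRCm38.p6). Alternatives were another prior, cyclic loess, the compared arrays only, a replicate block, each array left out, filters on dim or cross-hybridizing probe sets, and the mean of all probe sets of a gene.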

Additional observations from a re-analysis of the deposited data

How the results depend on the processing

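Between Cre Recurred and GFP Recurred cells the count of genes past the thresholds was 8 and became 19 with the compared arrays only, 15 without dim probe sets (where 13.5% and 18.1% of all genes were called, against 11.4%) and 0 to 14 with single arrays left out. For RB status averaged over naïve and recurred arrays the count was 1, against 0 with a replicate block, 3 without dim probe sets, 2 with the mean of all probe sets and 0 to 13 with single arrays left out (13 without Cre Naïve replicate 1, where calls over all probe sets went from 159 higher and 421 lower to 852 and 1551). Calls over all probe sets for RB status were 187 higher and 576 lower of 22518 without dim probe sets, against 159 and 421 of 45037. With a replicate block they were 160 and 382 of 45037, and with the mean of all probe sets 106 and 309 of 18193 genes. Without dim probe sets and with the mean, the share called thus rose over all genes too. Left-out arrays also moved the counts for Cre Naïve against GFP Naïve cells and for Cre Recurred against Cre Naïve cells. The class I median minus the antiviral median then ran from -0.32 to 0.12 between the recurred populations, from -0.31 to 0.43 for Cre Naïve against GFP Naïve, from -0.19 to 0.28 for Cre Recurred against Cre Naïve, from -0.45 to 0.24 for RB status on average and from -0.66 to 0.082 for the interaction, and with the mean of all probe sets the last 2 were 0.14 and -0.12. The cause of these shifts was not tested.

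The sign between the recurred populations turned for 8 genes, none of them past the thresholds, when single arrays were left out, each time with GFP Recurred replicate 2 among them: the ranges were -0.32 to 0.10 for H2-D1, -0.26 to 0.15 for H2-K1, -0.29 to 0.048 for B2m, -0.46 to 0.047 for Irf9, -0.56 to 0.15 for Eif2ak2, -0.89 to 0.12 for Bst2, -1.19 to 0.11 for Gbp2 and -0.79 to 0.27 for Irgm1. Eif2ak2 gave 0.020 with the mean of all probe sets. Of the other values of single genes under all alternatives, 546 kept direction and side of the threshold, 47 became past it and 37 no longer were.

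Whether the replicate numbers pair the samples is not stated. The 6 correlations of same-numbered deviations ran from -0.25 to 0.31, and with 2 arrays per population they cannot decide it. With a replicate block 9 genes passed between the recurred populations, where 11.9% of all genes were called. Of these 9, 7 were among the 8 (Tapbp was lost, and Psmb8 and Stat2 were gained). The count for RB status on average was 0 with the block. Signals below the array median, such as those of Mx1, lie near background and limit what those genes can show.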
